A study of Mus musculus with 16 samples.

Results

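Kinesins are ATP-driven motors that walk along microtubules, and in neurons they carry synaptic vesicle precursors, mitochondria, receptors and mRNA from the cell body into axons and dendrites. The kinesin-1 motor pairs heavy chains (Kif5a, Kif5b, Kif5c) with light chains (Klc1 to Klc4) that hold cargo, kinesin-2 and kinesin-3 motors carry other vesicles, and kinesin-4 motors also regulate microtubule growth. A separate set of kinesins builds and moves the mitotic spindle and is used mainly by dividing cells, which in the adult hippocampus include the progenitors of the dentate gyrus. The genes described here are those whose symbol is Kif followed by a digit, or Klc1 to Klc4: 44 of the 24972 genes listed. They comprise 19 transport motors and light chains, 12 mitotic motors, 10 motors of microtubule ends, cilia and other functions, and 3 entries outside these classes (Kif1bp, which encodes a kinesin-binding protein and not a motor, the pseudogene Kif4-ps, and the antisense transcript Kif16bos).

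The bulk RNA-seq libraries came from hippocampus of ArcCreERT2::eYFPflx mice, in which the tamoxifen-inducible Cre is driven by the promoter of Arc, and every animal of both groups carried these alleles. Trained mice learned active place avoidance on a rotating arena with the shock zone on, untrained mice were placed in the same arena with the shock off, with the brains collected at an age of 3 to 4 months, 60 min after a memory test held 24 h past the last training session. The DG, CA3 and CA1 were dissected from 3 trained and 3 untrained animals, which gave 16 libraries: 3 trained and 3 untrained for CA1, 3 trained and 2 untrained for CA3, and 3 trained and 2 untrained for DG. Values are normalized estimated counts per gene from pooled tissue RNA, in which fewer cells of a type and less RNA per cell cannot be told apart.

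The labels were checked against transcripts that should follow them. Prox1, the defining factor of dentate granule cells, ranged from 2690 to 4786 over all 16 libraries and averaged 3536 ± 271 (SD, n = 6) in the libraries labelled CA1, 3648 ± 869 (n = 5) in those labelled CA3 and 3665 ± 445 (n = 5) in those labelled DG. Of the pyramidal markers, Wfs1 (CA1) averaged 865 ± 429 in CA1, 318 ± 66.7 in CA3 and 444 ± 110 in DG, and the CA3 marker Iyd stayed between 0.83 and 18.4 throughout. The summed value of 6 CA3 pyramidal markers was 3947 to 4516 in CA3, above the 3212 to 3880 of CA1, and overlapped the 3619 to 4149 of DG. The summed value of 6 CA1 pyramidal markers was 3590 to 5709 in untrained CA1, but in trained CA1 (1898 to 2352) it lay within the range of DG (1598 to 2384). The markers thus separated the labelled subregions weakly, and subregion names are used below as labels of the dissection. Xist, expressed from the inactive X of females, was between 7601 and 19590 in all 9 trained libraries and between 25.5 and 52.4 in 6 of the 7 untrained libraries, and Ddx3y, on the Y chromosome, was lower in trained (1.66 to 255) than in most untrained libraries (201 to 553). The remaining untrained library, CA3 of untrained animal 1, had 10590 for Xist and 201 for Ddx3y, unlike the other libraries of that animal, and DG of trained animal 3 had 7601 and 255. The study's methods give both sexes in each training group. Sex-linked expression and training cannot be told apart in CA1 and DG, and in CA3 1 untrained library departs from that split. The number of genes listed at 0 also split the libraries: 7 libraries (all 3 trained CA1, 2 trained CA3 and both untrained DG) had 7567 to 9759 genes at 0, and the other 9 had 3124 to 5944.

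The transport motors held nearly all of the kinesin signal. Compared per kb of each gene's longest annotated transcript, which allows levels to be compared between genes, the 19 transport genes took 97.35 ± 0.199% (SD, n = 16 libraries) of the summed level of the 41 motors and light chains, the 10 other motors 2.48 ± 0.167%, and the 12 mitotic motors 0.179 ± 0.0566%. The order at the top was Kif5a, the neuronal kinesin-1 heavy chain (mean 1905 ± 256 per kb), Kif1a, the carrier of synaptic vesicle precursors (1353 ± 94.0), Kif5c, a second neuronal heavy chain (1287 ± 86.3), Kif1b, a carrier of mitochondria and vesicle precursors (1104 ± 53.4), and Klc1, the main neuronal light chain (1052 ± 130). Those 5 genes made up 72.5% of the sum. Kif5a stood above the next gene by more than the spread between libraries, whereas Kif1a and Kif5c, and likewise Kif1b and Klc1, lay within their spread of each other. The ubiquitous heavy chain Kif5b was at 387 ± 18.1 per kb, close to the kinesin-2 subunit Kif3a (401 ± 24.7).

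**Figure D1:**
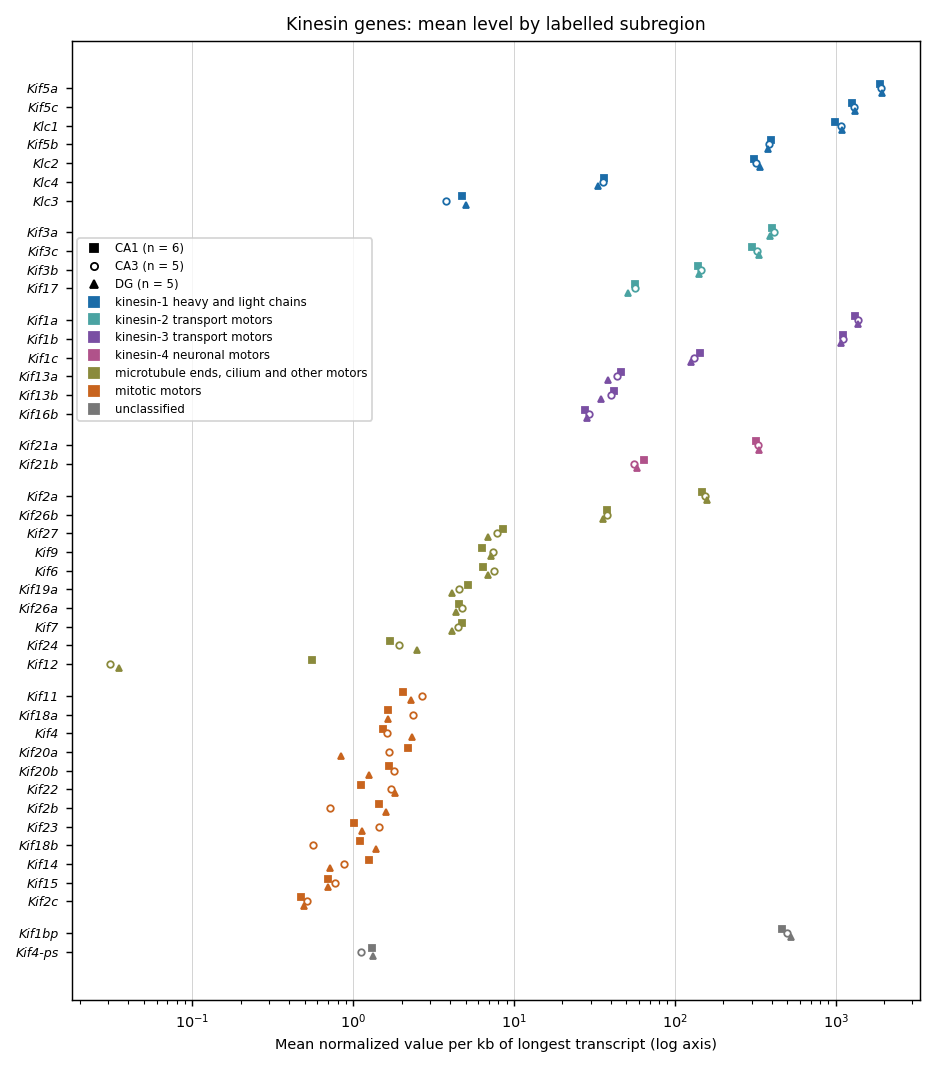
Mean normalized value per kb of the longest transcript on a log axis for 43 of the 44 genes (Kif16bos is left out), by role, with a point for each labelled subregion. Apart from Klc3 the transport genes lie at 27.8 or more and the 12 mitotic motors at 2.67 or less, and the points of the subregions lie close together for the abundant genes.

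Among the transport motors the spread over all 16 libraries was smallest for Kif3b, the partner of Kif3a in heterotrimeric kinesin-2, which ranged from 756 to 845 (coefficient of variation 3.40%). Kif5a varied more than the other abundant motors, from 8422 in CA3 of untrained animal 1 to 15100 in CA3 of trained animal 3 (13.4%). The summed level of 7 oligodendrocyte markers was lowest and highest in the same pair of libraries, at 12900 and 27210, and its part in the Kif5a values was not tested. At the low end, Klc3 had a mean of 8.66 and reached 10 in 6 of 16 libraries. The other 18 transport genes reached 10 in every library.

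The mitotic motors were near the lower limit of detection. Their means ran from 1.40 (Kif2c, a microtubule-depolymerizing kinesin of the centromere) to 12.1 (Kif18a, which controls chromosome alignment), and per kb the highest was Kif11, the bipolar spindle motor, at 2.32 ± 0.778. Of these 12 genes, 5 passed the low-value filter over all libraries, 2 in CA1, 3 in CA3 and 3 in DG. A gene that passed only through the group in which it was high had to differ, so the counts of tested mitotic genes carry no weight of their own.

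The first question was how training changed these genes over all subregions. With subregion as a covariate, limma called 3 of the 34 kinesin genes tested (8.82%) at an adjusted p under 0.05, beside 10.3% of all 14673 genes tested, so that the share of kinesins was not above that of other genes. The 16 libraries came from 6 animals and entered this fit as independent. With one value per animal none of the 3 passed (Klc1 0.23, adjusted p = 0.0513, Kif21a -0.13, adjusted p = 0.0734, and Kif16b -0.25, adjusted p = 0.0796). The light chain Klc1 rose, and the endosomal kinesin-3 motor Kif16b and the kinesin-4 motor Kif21a fell, where 6.28% of all genes rose and 4.06% fell. Before adjustment, 9 kinesins and 25.5% of all genes had a p under 0.05. The median log2 difference was 0.016 over the 34 genes and -0.009 over all genes.

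Klc1, which links kinesin-1 to its cargo (chr12:111758849-111807844, plus strand, GRCm38), was at 2166, 2041 and 2357 in the untrained CA1 libraries and at 2796, 2777 and 2706 in the trained ones. In CA3 it was at 2357 and 2389 without training and at 2765, 3051 and 3009 with training. In DG the untrained values were 2297 and 3093 and the trained values 2762, 2883 and 2711. All trained libraries thus lay above all untrained ones in CA1 and in CA3, and the trained DG values lay between the untrained pair. The log2 difference over subregions was 0.24 ± 0.0545 (SE, 1.18-fold, limma adjusted p = 0.00606), and in CA1 alone it was 0.34 ± 0.0558 (1.26-fold, adjusted p = 0.0011). In CA3 it was 0.31 ± 0.0747 and missed the threshold (adjusted p = 0.0851), and in DG it was 0.06 ± 0.106 (adjusted p = 0.798). The CA1 effect exceeded that in DG by 0.27 (unadjusted 95% interval 0.033 to 0.515), a difference that did not pass after adjustment over all genes (adjusted p = 0.215). Without untrained animal 1 the difference over subregions was 0.19 (adjusted p = 0.135), without trained animal 2 it was 0.22 (adjusted p = 0.0581), and when a score of sex-linked transcripts (Y-linked genes against Xist) entered the fit it was 0.26 (adjusted p = 0.46). The CA1 call was kept when each animal in turn was left out (adjusted p up to 0.0161) and lost with the sex-linked score (log2 difference 0.36, adjusted p = 1). Within CA1 and DG that score separates the training groups completely, so that a call lost with it says little. Its annotated exons share 12 bases with Xrcc3 on the other strand. Klc2, its near paralog, was at 928 ± 89.4 in untrained and 1043 ± 94.7 in trained CA1 and did not pass the test in any comparison.

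Kif5c, a heavy chain that these light chains bind (chr2:49619298-49774778, plus strand), went the other way in DG. The untrained DG libraries had 9433 and 10440, and the trained ones 8392, 8450 and 8427, without overlap. The log2 difference was -0.24 ± 0.0541 (0.849-fold, limma adjusted p = 0.0257). It was the 1 kinesin called of 32 tested in DG (3.12% beside 3.39% of all genes), with 7 below an unadjusted 0.05 beside 19.5% of all genes. In CA1, where the untrained values were 8232, 8214 and 8298 and the trained values 8782, 8807 and 9260, the groups also did not overlap, but in the opposite order, and the difference of 0.12 ± 0.0394 missed the threshold (adjusted p = 0.0936). In CA3 the values were 8315 and 8817 untrained and 9119, 9330 and 8845 trained (0.09 ± 0.0694, adjusted p = 0.575). Its closest relatives did not pass: Kif5a in DG was at 12660 ± 1312 (n = 2) untrained and 11870 ± 363 (n = 3) trained, and Kif5b at 2294 ± 243 and 2258 ± 98.3. The DG call was lost when any of the 3 trained animals or untrained animal 3 was left out (adjusted p = 0.0821 to 0.123). Over all 5 such fits the difference lay between -0.31 and -0.16. The call was lost as well with the sex-linked score (-0.27, adjusted p = 1). Kif5c was at 8782 to 10440 in the 7 libraries with many genes at 0 and at 8214 to 8845 in the other 9, and in CA1 and DG that split coincides with training, so that the number of genes at 0 and training cannot be told apart there.

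**Figure D2:**
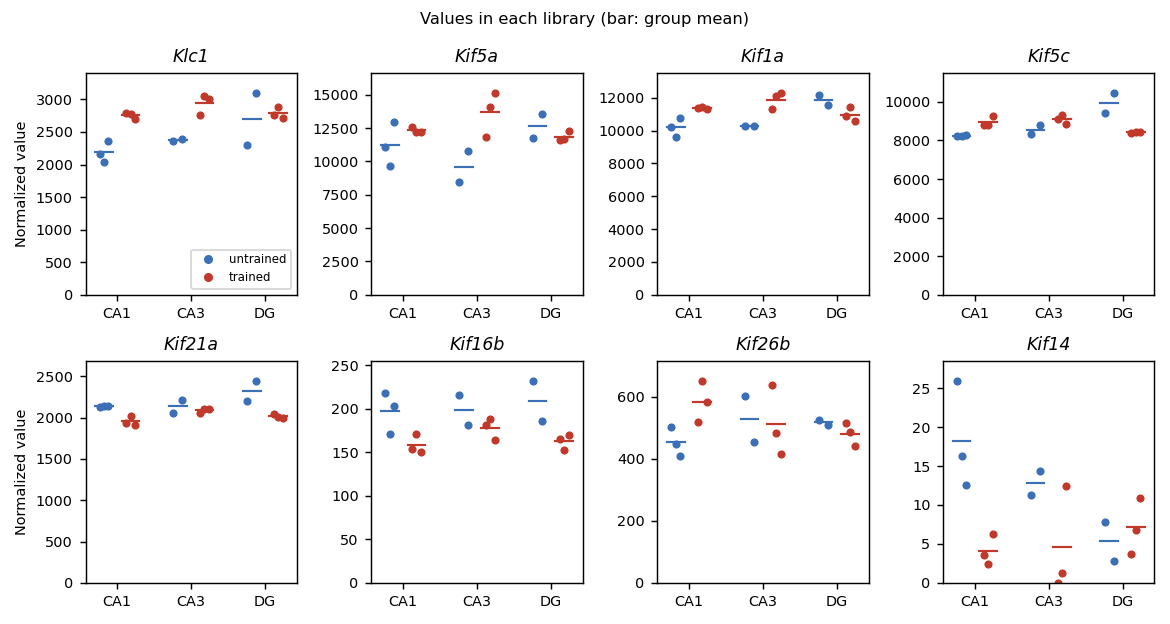
Normalized value in each of the 16 libraries for 8 kinesin genes, by labelled subregion, with untrained libraries in blue, trained in red and bars at the group means, on axes that start at 0. Klc1 is higher in every trained than in every untrained CA1 library, while Kif5c is higher with training in CA1 and lower in DG.

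Whether the training effects differed between subregions was tested in one fit of the 6 groups. Between CA1 and DG, 2 of 34 kinesins (5.88%, beside 2.75% of all genes; 9 kinesins and 17.8% of genes before adjustment) had different effects: Kif5c, by 0.35 ± 0.0718 on the log2 scale (95% interval 0.206 to 0.501, limma adjusted p = 0.0138), and Kif1a, by 0.27 ± 0.0742 (0.121 to 0.427, adjusted p = 0.0434). With the animal as a block, the Kif5c difference was 0.36 (adjusted p = 0.0211) and the Kif1a difference 0.25 (adjusted p = 0.0965). With a term for many genes at 0 the differences were 0.23 for Kif5c and 0.41 for Kif1a (adjusted p = 0.999 for both). Since only the trained CA3 libraries are mixed in that respect, that term rests on 2 libraries against 1, and the lost calls say little. Without trained animal 2 the Kif5c difference had an adjusted p of 0.0736, and without untrained animal 3 of 0.0583. The Kif1a difference was lost without any of the 5 animals other than untrained animal 3 (adjusted p = 0.0937 to 0.22). Between CA1 and CA3, limma called 0 of 34 kinesins (0.0273% of all genes), with 3 at an unadjusted p under 0.05 beside 6.71% of all genes. Between CA3 and DG it also called 0 of 34 (0.164% of all genes), with 12 at an unadjusted p under 0.05 beside 11.7% of all genes.

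Most transport genes lay above 0 in CA1 and CA3 and below 0 in DG. Of the transport genes tested, 13 of 18 were above 0 in CA1, 14 of 18 in CA3 and 4 of 19 in DG, with medians of 0.057, 0.112 and -0.084 beside medians of all genes of 0, -0.006 and 0.001. The summed level of the 19 genes was 8484 ± 516 per kb (n = 3) in untrained and 9187 ± 40.5 (n = 3) in trained CA1, 8241 ± 460 (n = 2) and 9643 ± 473 (n = 3) in CA3, and 9451 ± 586 (n = 2) and 8865 ± 99.8 (n = 3) in DG. The libraries with many genes at 0 were the trained ones in CA1 and the untrained ones in DG, which are the higher groups. Other cell markers also moved: 5 choroid plexus markers summed to 804.1 to 1111 in untrained and 234.6 to 314.3 in trained CA3 libraries, with 2 called lower. In DG, 4 endothelial markers summed to 521.1 to 613.3 in untrained and 312.6 to 351.5 in trained libraries, with 1 called lower, and 7 granule cell markers to 11950 to 12310 and 9629 to 10330, with 2 called lower. Other lists separated without a call. Immature neuron markers summed to 1157 to 1272 untrained and 762.8 to 1028 trained in CA3, and 1105 to 1151 and 906.1 to 1007 in DG. Astrocyte markers in CA3 (9862 to 10890 and 8688 to 9640) and oligodendrocyte markers in DG (16250 to 20850 and 14450 to 15660) were lower too. Interneuron markers in DG were higher with training (3210 to 3493 and 3581 to 3748). Markers in CA1 are given below. The part of these markers in the transport sums was not tested. In CA3, the single trained library with few genes at 0 had 3009 for Klc1, 12270 for Kif1a and 15100 for Kif5a, against 2765 and 3051, 11300 and 12120, and 11860 and 14080 in the trained libraries with many.

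**Figure D3:**
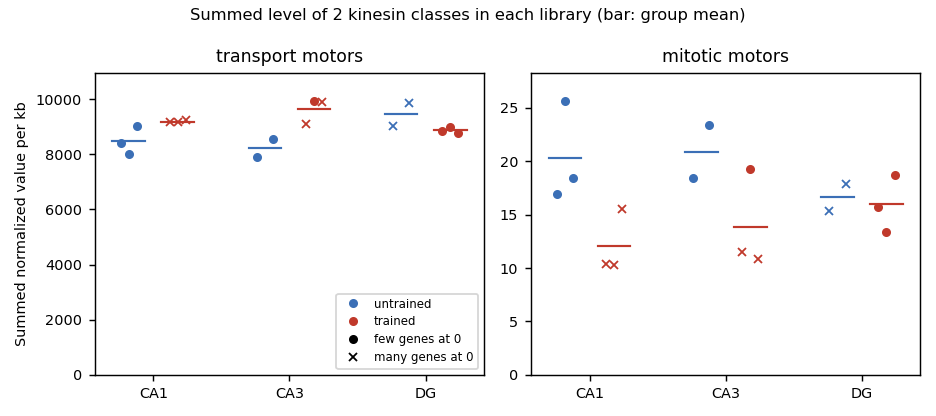
Summed normalized value per kb of the 19 transport motors (left) and 12 mitotic motors (right) in each library, with crosses for the 7 libraries with many genes at 0, circles for the other 9 and bars at the group means, on axes that start at 0. The transport sum is higher in trained CA1 and CA3 libraries and in untrained DG libraries, and the mitotic sum is lower in trained CA1.

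Kif1a, which carries synaptic vesicle and dense-core vesicle precursors (chr1:93015464-93101951, minus strand), rose in CA1. It was at 10220, 9629 and 10760 in untrained and at 11400, 11420 and 11290 in trained CA1 libraries, without overlap. The log2 difference was 0.16 ± 0.0421 (1.12-fold, limma adjusted p = 0.0339). In CA3 the untrained libraries had 10270 and 10290 and the trained ones 11300, 12120 and 12270, again without overlap, and the difference of 0.21 ± 0.07 did not pass (adjusted p = 0.185). In DG the order turned, with 12200 and 11580 untrained and 10910, 11410 and 10580 trained (-0.12 ± 0.0518, adjusted p = 0.223). The CA1 call was lost without any of the 5 animals other than untrained animal 3 (adjusted p = 0.0796 to 0.167), with upper-quartile rescaling (0.13, adjusted p = 0.058), without robust estimation (adjusted p = 0.0706), in one fit of all 16 libraries (adjusted p = 0.0728) and with the sex-linked score (0.20, adjusted p = 1). Its paralog Kif1b averaged 11360 ± 555 in untrained and 11480 ± 355 in trained CA1 and passed no test.

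Kif16b, which moves early endosomes toward the cell periphery (chr2:142617474-142901531, minus strand), was lower with training. Its untrained values were 217.8, 171.6 and 203.2 in CA1, 215.9 and 181.1 in CA3, and 231.7 and 186.0 in DG. The trained values were 154.3, 170.7 and 150.5 in CA1, 181.3, 188.5 and 163.8 in CA3, and 165.8, 153.0 and 170.0 in DG. The groups did not overlap in CA1 and DG and overlapped in CA3. Over subregions the log2 difference was -0.27 ± 0.0737 (0.828-fold, limma adjusted p = 0.0188), and in no single subregion did it pass the test (adjusted p = 0.176, 0.573 and 0.179 in CA1, CA3 and DG). Leaving out any trained animal or untrained animal 1 lost the call (adjusted p = 0.0535 to 0.284), as did removing the trend with GC content and length (-0.20, adjusted p = 0.128) and the sex-linked score (-0.33, adjusted p = 0.492). It was also lost without both CA3 of untrained animal 1 and DG of trained animal 3 (-0.27, limma adjusted p = 0.0602). Over the 6 fits that left out an animal, the Kif16b difference lay between -0.35 and -0.17. Its antisense transcript Kif16bos was at 0 in 14 of 16 libraries and at most 1.26.

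Kif21a, a kinesin-4 motor that restrains microtubule growth (chr15:90933276-91049948, minus strand), had the smallest of the called differences. The untrained libraries had 2128, 2146 and 2146 in CA1, 2060 and 2216 in CA3, and 2198 and 2441 in DG. The trained libraries had 1941, 2025 and 1917 in CA1, 2056, 2110 and 2107 in CA3, and 2046, 2009 and 2000 in DG. CA1 and DG showed no overlap, and in CA3 the trained values overlapped the untrained range. The log2 difference over subregions was -0.12 ± 0.0371 (0.921-fold, limma adjusted p = 0.0405). It was lost when any animal other than untrained animal 1 was left out (adjusted p = 0.106 to 0.13), without the GC and length trend (-0.04, adjusted p = 0.624) and with the sex-linked score (-0.05, adjusted p = 0.905). The Kif21a call was also lost without the low-value filter (limma adjusted p = 0.0589). Its paralog Kif21b, a motor of neuronal dendrites, had 620.3, 581.2 and 738.3 in untrained and 527.2, 585.3 and 510.3 in trained CA1, but 412.6 and 446.8 in untrained and 519.4, 608.4 and 577.2 in trained CA3. The CA3 difference was 0.40 ± 0.0932 (limma adjusted p = 0.0773) and the CA1 difference -0.25 ± 0.0896 (adjusted p = 0.12). The difference between these effects was -0.65 ± 0.137 (95% interval -0.933 to -0.370, adjusted p = 0.101) and that between CA3 and DG 0.67 ± 0.144 (0.377 to 0.969, adjusted p = 0.0515). Neither passed.

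Of the genes next to the threshold, Kif13b, a kinesin-3 motor that carries signaling proteins, fell short in DG. It had 344.4 and 373.2 in untrained and 272.4, 287.0 and 256.8 in trained DG libraries, and 396.6, 380.6 and 450.4 against 330.7, 368.3 and 302.3 in CA1, without overlap in either. The log2 differences were -0.40 ± 0.108 in DG (limma adjusted p = 0.0528) and -0.29 ± 0.0972 in CA1 (adjusted p = 0.0892). In CA3 the trained libraries were the higher ones, at 350.9, 392.5 and 379.2 against 326.5 and 339.7 (0.17 ± 0.0908, adjusted p = 0.407). Klc4, a minor light chain, had 42.47 and 69.08 in untrained and 85.52, 83.56 and 106.4 in trained DG libraries, without overlap, and its difference of 0.73 ± 0.224 did not pass (adjusted p = 0.0802).

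In CA3, limma called 0 of 31 kinesins (0.852% of all genes), with 5 at an unadjusted p under 0.05 beside 15.8% of all genes. Kif21b, Klc1 and Kif5a had the smallest p-values, and all 3 were higher in each trained CA3 library than in each untrained one. Their choice by p-value makes that separation likely, and it carries no weight of its own. Kif5a was at 8422 and 10750 without training and at 11860, 14080 and 15100 with it (0.52 ± 0.131, limma adjusted p = 0.122). Without CA3 of untrained animal 1 the Kif5a difference was 0.34 (adjusted p = 0.534) and the Kif21b difference 0.34 (adjusted p = 0.442). That library, whose sex-linked transcripts differed from those of the same animal's other libraries, was the lowest of all 16 for the transport genes Kif5a, Klc2, Kif3c, Kif1b and Kif21b.

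No kinesin-2 motor was called. Kif3a, Kif3b, Kif3c and Kif17, which carries NMDA receptor subunits in dendrites, had a median log2 difference over subregions of 0.037, and their coefficients of variation over all libraries ran from 3.40% (Kif3b) to 10.2% (Kif17, 153.1 to 225.9). Kif3c had 2055 ± 81.55 in CA1 and 2280 ± 102.7 in DG, a log2 difference of -0.15 that did not pass (adjusted p = 0.127). Kif3a averaged 1227 ± 36.5 in untrained and 1305 ± 39.6 in trained CA1, 1267 ± 1.32 and 1319 ± 58.8 in CA3, and 1255 ± 209 and 1221 ± 74.3 in DG. Kif3c shares 2617 exonic bases with the antisense gene 1110002L01Rik, and whether the counting used strand is not given in the sources used here.

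Outside the transport class, limma called Kif26b and Kif14 in CA1, beside Klc1 and Kif1a, which made 4 of 29 kinesins there (13.8%, beside 5.23% of all genes). Kif14 entered this test only through its high untrained group, so the share of 13.8% is not read as an excess. With a value of 10 required in every library Kif14 was not tested and 3 kinesins were called. Unadjusted, 11 kinesins and 18.9% of all genes had a p under 0.05. Other cell markers moved in the same CA1 libraries: the summed value of 6 CA1 pyramidal markers was 3590 to 5709 in untrained and 1898 to 2352 in trained ones, and that of 5 choroid plexus markers was 1001 to 1161 in untrained and 304.9 to 2379 in trained ones. That of 6 CA3 pyramidal markers was 3212 to 3459 in untrained and 3573 to 3880 in trained CA1, with 3 called higher and 2 lower, and 2 of 5 tested immature neuron markers were called lower. Their part in the CA1 differences was not tested. Kif26b (chr1:178529125-178939200, plus strand), a kinesin that acts in noncanonical Wnt signaling, had 501.4, 446.9 and 410.0 in untrained and 518.1, 649.1 and 583.5 in trained CA1, without overlap. The log2 difference was 0.36 ± 0.0943 (1.29-fold, limma adjusted p = 0.0292). In CA3 and DG the groups overlapped, with means of 527.8 ± 106 and 511 ± 114 in CA3 and 517 ± 10.7 and 480.5 ± 37.5 in DG. The call was lost without trained animal 2 or 3 or untrained animal 2 or 3 (adjusted p = 0.0717 to 0.162), and 909 of its 14696 exonic bases are shared with the antisense gene Gm16564. The difference turned to -0.29 (adjusted p = 1) with the sex-linked score. Its paralog Kif26a was at 28.5 ± 6.44 in untrained and 34.2 ± 12.1 in trained CA1. Kif2a, which trims microtubule ends and was the highest of this class at 153 ± 8.33 per kb, passed no test.

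Kif14 (chr1:136466343-136531511, plus strand), a motor of cytokinesis, had 25.9, 16.3 and 12.5 in untrained and 3.53, 2.48 and 6.26 in trained CA1, without overlap, and the log2 difference was -1.73 ± 0.483 (0.302-fold on the log2(value + 2) scale, limma adjusted p = 0.0428). The trained libraries were all below the filter's value of 10, so the gene entered the test only through its high untrained group and its call is given as a description. In CA3 the untrained libraries had 11.3 and 14.4 and the trained ones 0, 1.195 and 12.4 (-1.71 ± 0.829, adjusted p = 0.348), and in DG, where the groups overlapped, it was not tested. Kif14 was at 0 to 7.85 in the 7 libraries with many genes at 0 and at 3.75 to 25.9 in the other 9. The call was lost without trained animal 1 or 2 or untrained animal 1 or 2 (adjusted p = 0.0766 to 0.253), and the difference turned to 1.08 (adjusted p = 1) with the sex-linked score. Kif11, the most abundant mitotic motor per kb, was at 13.2 ± 2.93 (n = 7) in untrained and 9.60 ± 3.69 (n = 9) in trained libraries and did not pass (log2 difference -0.44, adjusted p = 0.245). The summed level of the 12 mitotic motors was 20.3 ± 4.68 per kb in untrained and 12.1 ± 3.03 in trained CA1, 20.9 ± 3.48 and 13.9 ± 4.71 in CA3, and 16.6 ± 1.81 and 15.96 ± 2.67 in DG. In CA3 the trained library with few genes at 0 had 19.3, between the untrained 18.44 and 23.36. The trained CA3 libraries with many had 11.52 and 10.8. In CA1 all trained libraries had many genes at 0, so the number of genes at 0 and training cannot be told apart there. Summed over 20 cell cycle genes other than kinesins, the range was 245 to 329 in untrained and 156.5 to 240 in trained libraries. In trained CA3 that sum was 226.4 in the library with few genes at 0 and 167.3 and 158.0 in those with many. The summed value of 6 immature neuron markers was 994.8 to 1272 in untrained and 762.8 to 1028 in trained libraries, with 3 of 6 called lower over all subregions, and its part in the mitotic sums was not tested.

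**Figure D4:**
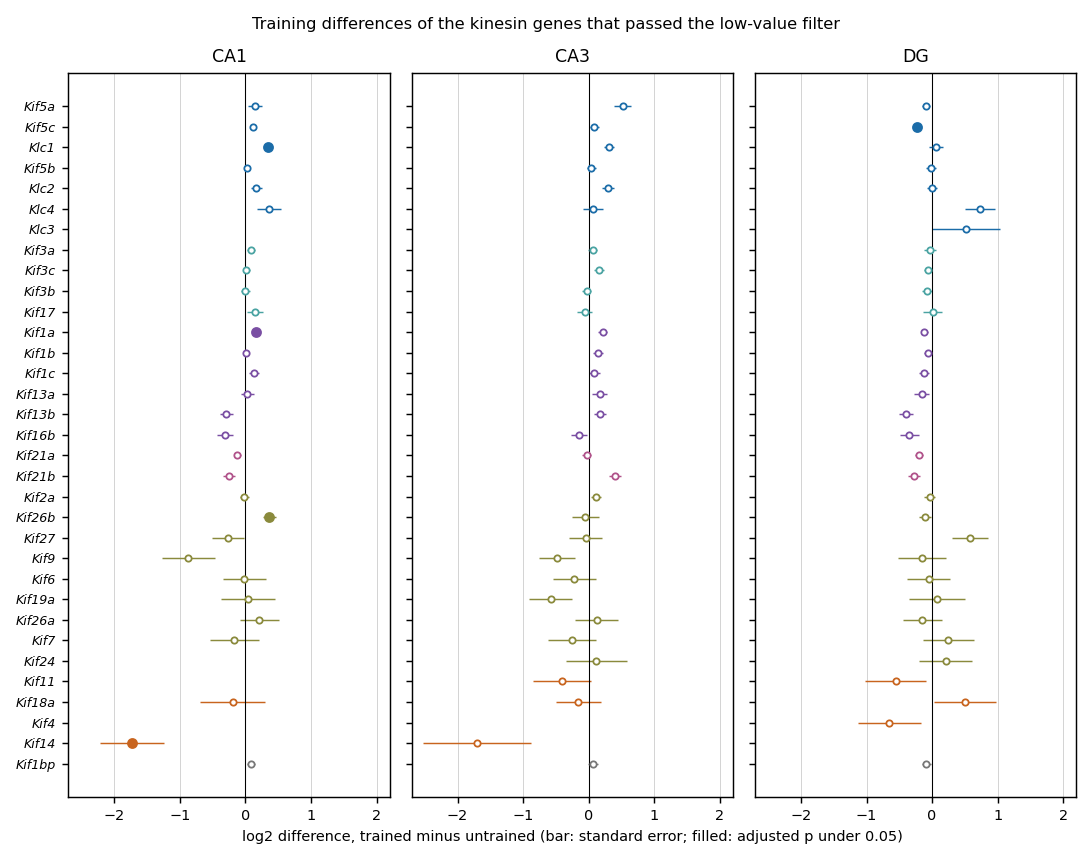
Log2 difference, trained minus untrained, with its standard error for each kinesin gene that passed the low-value filter in that labelled subregion (29 in CA1, 31 in CA3 and 32 in DG), colored by role, with filled points for an adjusted p under 0.05. Filled points are Klc1, Kif1a, Kif26b and Kif14 in CA1 and Kif5c in DG, and the bars of the mitotic and ciliary genes are the widest.

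The starts of the 5 transport genes called in a training comparison are shown, since they carry the training differences reported here. Each line gives the 250 bases before the start of the gene in RefSeq (GRCm38.p6), 5′ to 3′ on the gene's strand. They lie at chr12:111758618-111758867 (plus strand), chr2:49619036-49619285 (plus), chr1:93101875-93102124 (minus), chr2:142901465-142901714 (minus) and chr15:91049952-91050201 (minus). Capitals mark matches on either strand to the CRE half-site TGACG, bound by the activity-regulated factor CREB, the GC box GGGCGG, bound by Sp1, and the TATA box TATAAA.
Klc1: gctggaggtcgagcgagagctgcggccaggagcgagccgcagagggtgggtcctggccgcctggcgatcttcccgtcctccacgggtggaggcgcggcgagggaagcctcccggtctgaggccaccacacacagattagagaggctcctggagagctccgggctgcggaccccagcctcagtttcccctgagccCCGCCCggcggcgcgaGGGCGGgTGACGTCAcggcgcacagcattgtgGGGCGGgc
Kif5c: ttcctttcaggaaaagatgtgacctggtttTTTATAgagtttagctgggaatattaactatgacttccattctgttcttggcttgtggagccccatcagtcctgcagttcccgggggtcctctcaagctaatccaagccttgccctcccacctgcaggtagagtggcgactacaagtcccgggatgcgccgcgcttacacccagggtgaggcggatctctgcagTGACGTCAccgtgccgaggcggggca
Kif1a: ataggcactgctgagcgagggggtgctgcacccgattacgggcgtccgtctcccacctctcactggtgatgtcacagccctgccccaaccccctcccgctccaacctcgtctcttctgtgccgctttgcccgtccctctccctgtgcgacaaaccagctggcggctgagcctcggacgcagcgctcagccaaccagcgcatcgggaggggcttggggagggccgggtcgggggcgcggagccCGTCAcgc
Kif16b: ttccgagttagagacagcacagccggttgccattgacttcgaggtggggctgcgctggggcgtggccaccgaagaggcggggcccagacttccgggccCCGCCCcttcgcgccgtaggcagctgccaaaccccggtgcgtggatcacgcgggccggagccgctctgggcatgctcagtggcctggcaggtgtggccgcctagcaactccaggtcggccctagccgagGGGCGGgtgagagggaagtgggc
Kif21a: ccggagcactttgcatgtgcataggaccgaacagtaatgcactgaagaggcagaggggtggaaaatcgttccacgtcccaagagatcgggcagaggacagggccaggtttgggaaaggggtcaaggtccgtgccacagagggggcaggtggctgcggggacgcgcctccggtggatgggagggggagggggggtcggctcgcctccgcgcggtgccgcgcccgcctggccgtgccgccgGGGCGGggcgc
Klc1 and Kif5c each held a full CRE, TGACGTCA, which is a half-site on both strands, a pair that overlaps, and the half-site also occurred in Kif1a. Kif5c also held 1 match to the letters of the TATA box. It lay on the opposite strand and near the end of the window far from the start of the gene. Kif16b and Kif21a had no half-site in this window but 2 and 1 GC boxes. RefSeq windows were found for 36 of the 44 genes. Of these, 3 held the full CRE (Klc1, Kif5c and Kif17), beside 1.55% of 32851 windows of the same length, 16 held the half-site (17.8% of windows), 22 a GC box (32.7%) and 5 a TATA box (12.4%). The median GC content was 63.2% in the kinesin windows and 52.4% in all windows. Each kinesin gene entered with 1 window, that of the start nearest its annotated one. The 32851 windows hold every listed start, more than 1 for some genes, so the shares come from unlike sets. Of the genes with the full CRE, Klc1 and Kif5c were both higher in all trained CA1 libraries (log2 differences 0.34 and 0.12, of which that of Klc1 passed), while in DG the differences were 0.06 and -0.24, of which that of Kif5c passed. The third, Kif17, overlapped between the groups in CA1 (195.9, 182.9 and 174.5 untrained, 176.8, 225.9 and 213.7 trained) and was called in no comparison.

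No kinesin passed the test between labelled subregions. Limma called 0 of 34 kinesins between CA1 and DG, beside 1.95% of all genes, 0 of 34 between CA1 and CA3 (0.211%) and 0 of 34 between CA3 and DG (0% of all genes). Before adjustment, 6, 0 and 2 kinesins had a p under 0.05 in these comparisons, beside 17.1, 8.72 and 4.87% of all genes. The smallest adjusted p was that of Kif1bp, lower in CA1 (1222 ± 51.7, n = 6) than in DG (1380 ± 57.1, n = 5) with a log2 difference of -0.17 ± 0.0479 (limma adjusted p = 0.0576). Kif13a, an endosomal kinesin-3 motor, averaged 317 ± 24.01 in CA1, 299 ± 32.0 in CA3 and 265 ± 18.7 in DG, and the difference between CA1 and DG was 0.25 ± 0.0776 (adjusted p = 0.0825), which passed with the animal as a block (0.29 ± 0.069, adjusted p = 0.0342). For the 5 most abundant motors the difference of CA1 from DG ran from -0.13 (Klc1) to 0.05 (Kif1b), and the largest of any kinesin was -0.92 for the low-abundance ciliary motor Kif24 (adjusted p = 0.279).

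Genes that work with these motors were described by lists as well. The lists were chosen with earlier results of these data known. Counts over all subregions come from the fit that takes the 16 libraries of 6 animals as independent. They were not repeated with a single value per animal or with the sex-linked score, under which the kinesin calls of that fit were lost. Of 31 tested adaptors and regulators of kinesins, 8 rose and 2 fell over all subregions (32.3% beside 10.3% of all genes), among them Ppfia4 (liprin-alpha 4, a Kif1a partner) at 0.30 ± 0.0538, Hap1, which couples huntingtin to motors, at 0.31 ± 0.0563, and Mapk8ip2, a scaffold that binds kinesin light chains, at 0.24 ± 0.0438 (limma adjusted p = 0.0012, 0.00121 and 0.00125). Of 19 tested genes of the microtubule track, 5 rose and 1 fell, with Stmn3, a tubulin-binding regulator, at 0.42 ± 0.0821 and Stmn4 at -0.23 ± 0.0532 (adjusted p = 0.00409 and 0.00725). Of 20 cell cycle genes 15 passed the filter, and low ones could pass through the group in which they were higher, so that this count carries no weight of its own: 0 rose and 4 fell, among them Mki67, at 28.85 to 53.28 in untrained and 5.497 to 27.43 in trained libraries, with a log2 difference of -1.42 ± 0.242 (adjusted p = 0.000823). In CA1, beside 5.23% of all genes, limma called 4 of 31 adaptors (12.9%) and 5 of 19 track genes (26.3%), all higher. Of the 20 cell cycle genes 10 passed the filter there, and 2 were called, both lower, a count with the same limit as over all subregions. In CA3 limma called 2 of 31 adaptors (6.45%, beside 0.852% of all genes), Ppfia3 and Mapk8ip2, both higher, 0 of 19 track genes (3 before adjustment) and 0 of 9 cell cycle genes (2 before adjustment). In DG limma called 0 of 31 adaptors, with 10 at an unadjusted p under 0.05, and 0 of 12 cell cycle genes, with 1, beside 3.39% of all genes called and 19.5% before adjustment. Of 19 track genes tested in DG, 21.1% were called and 14 had an unadjusted p under 0.05. Tubb2b and Tubb2a rose and 2 fell, among them Map1b at -0.29 ± 0.0484 (limma adjusted p = 0.00591).

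**Figure D5:**
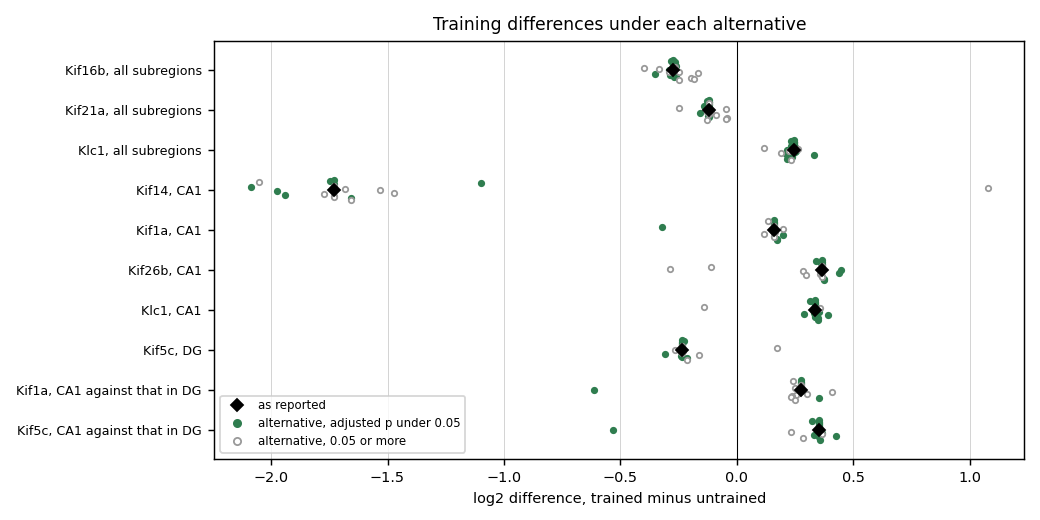
Log2 difference of each called kinesin comparison as reported (black diamonds) and under each alternative processing (green circles, adjusted p under 0.05; open circles, 0.05 or more). Klc1 in CA1 passes in 17 of 19 alternatives, Kif5c in the CA1 against DG difference passes in 16 of 19, 1 of them with the opposite sign, and points on the other side of 0 come from the covariate for sex-linked transcripts or the added scaling.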

How the data were processed

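Bulk RNA-seq was measured in 16 hippocampal libraries. The deposited values are a signal per gene, estimated counts that the authors had normalized across samples and that are not whole numbers. Per the labels and the study's methods, reads were demultiplexed (bcl2fastq 2.20), checked with FastQC, aligned with STAR, quantified with Salmon and analysed with DESeq2. Trimming with Trim Galore and the build GRCm38 come from the labels. The study's methods print MM10 (GRCm39) for these libraries and name Trim Galore only for the spatial transcriptomics. GRCm38 was used here. The exact normalization step and the counting strand are not given in the sources used here. Read depth is unknown: the values summed to 7607326 to 7984931 per library, which reflects the normalization, and no counting interval was made.

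Libraries were grouped by their titles. The share of all genes without overlap between trained and untrained libraries was not counted. Statements on overlap therefore describe the values and carry no weight as a test. Values were tested as log2(value + 2) with limma 3.58.1 in R 4.3.3 (trended, robust variance), with Benjamini-Hochberg adjustment over all genes tested and a threshold of 0.05. Genes needed a value of 10 in as many libraries as the smallest group holds, and at least 2 (3 in CA1). Training was tested over subregions, with subregion as a covariate, and within each. Subregions were compared with training as a covariate, and differences between training effects were tested in a fit of the 6 groups. Fold changes are on the log2(value + 2) scale and understate changes of low genes. The code was tested on simulated data. Gene positions, GC content and length came from GENCODE (GRCm38), which matched 24525 of 24972 genes. The sex-linked score subtracts Xist from the average of Ddx3y, Eif2s3y, Kdm5d and Uty, each as log2(value + 2).

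Genes named in the text are those called in any of 10 comparisons, the highest per kb in each role, and their near paralogs. Kif13a, Kif13b, Kif16bos, Kif17, Kif18a, Kif24, Kif2c, Klc3 and Klc4 were named after their values were seen. The kinesin genes and all gene lists were chosen with earlier results of these data known. Libraries of one subregion came from separate animals, and those of one animal share its number across subregions per the labels. Over 14 pairs of libraries of the same animal, deviations from group means correlated between -0.108 and 0.092. Alternatives changed the scaling, pseudocount, filter, variance estimation, covariates, blocks and libraries. Scaling by each library's upper quartile of genes above 0 was added after seeing the data.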

Additional observations from a re-analysis of the deposited data

Results flagged for a closer look

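The test of the difference between the training effects in CA1 and DG passed for 2 kinesins, of which Kif1a did not hold with the animal as a block. For Kif5c it was higher in CA1 by 0.35 on the log2 scale (limma adjusted p = 0.0138), with all 3 trained CA1 libraries above all untrained ones and all 3 trained DG libraries below both untrained ones. For Kif1a it was higher in CA1 by 0.27 (limma adjusted p = 0.0434), with the same separation of the groups. The libraries with many genes at 0 were the trained ones in CA1 and the untrained ones in DG, and with a term for them the differences were 0.23 for Kif5c and 0.41 for Kif1a, neither of which passed (adjusted p = 0.999 for both). That term rests on the trained CA3 libraries alone, 2 against 1, so that these losses say little. With the animal as a block Kif5c passed (adjusted p = 0.0211) and Kif1a did not (0.25, adjusted p = 0.0965). Kif1a was also lost without any of the 5 animals other than untrained animal 3 (adjusted p = 0.0937 to 0.22), with upper-quartile rescaling (0.24, adjusted p = 0.0785), with a value of 10 required in every library (adjusted p = 0.065), without robust estimation (adjusted p = 0.0736) and without both CA3 of untrained animal 1 and DG of trained animal 3 (adjusted p = 0.125). Kif5c was lost without trained animal 2 (adjusted p = 0.0736) or untrained animal 3 (adjusted p = 0.0583). Dixon's test flagged no library in 14 groups, each a called gene in the trained or the untrained libraries. The 3 subregions were pooled, each centred on the mean of its 2 training means. Opposite effects in CA1 and DG widen such groups, so a far library could hardly be flagged for Kif5c or Kif1a. DG of untrained animal 3 came nearest the limit of 0.568. Its gap to the next library, as a share of the range, was 0.537 for Klc1, 0.527 for Kif5c and 0.502 for Kif21a.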

How the results depend on the processing

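The number of kinesins called depended on the processing. Over all subregions (3 as reported) it was 0 with the added scaling, the sex-linked score or one value per animal, 6 with one fit of all 16 libraries, 1 without the GC and length trend with or without the replicate block, and 0 to 6 when an animal was left out. In CA1 (4) it was 1 without robust estimation, with the replicate block or in one fit, 0 with the sex-linked score, 20 with the added scaling, and 1 to 5 without an animal. In CA3 (0) it was 1 with the sex-linked score, 6 with the replicate block, 2 in one fit, 7 with the block and no GC and length trend, and 0 to 4 without an animal. In DG (1) it was 2 with a value of 10 in every library, with the replicate block or in one fit, 0 without robust estimation, without trained animal 3, with the sex-linked score or with the block and no GC and length trend, 12 with the added scaling, and 0 to 4 without an animal. Trained and untrained libraries share only a number (7 pairs correlated between -0.18 and 0.119), so that this block does not pair them.

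Between CA1 and DG (0) it was 1 with upper-quartile rescaling, a term for many genes at 0, the animal as replicate block, or trained or untrained libraries only, and between CA1 and CA3 (0) it was 1 in untrained libraries only. Of the differences between training effects, CA1 minus DG (2) gave 1 with upper-quartile rescaling, a value of 10 in every library, no robust estimation, the animal block or both doubtful libraries left out, 0 with a term for many genes at 0, 25 with the added scaling, and 0 to 2 without an animal. CA1 minus CA3 (0) gave 0 to 1 without an animal, and CA3 minus DG (0) gave 1 with a value of 10 in every library, 4 with the added scaling and 0 to 1 without an animal. The causes were not tested.

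The added scaling, by the upper quartile of the genes above 0 in each library, put the median of all genes at -0.473 in CA1, -0.232 in CA3 and 0.404 in DG, against 0, -0.006 and 0.001 as reported, and left 0.815, 30.8 and 99.8% of calls higher, against 67.5, 86.4 and 51.2%. Under it the signs turned in CA1 for Kif1a (-0.3215), Kif26b (-0.1134), Kif5c (-0.3615) and Klc1 (-0.1418), in DG for Kif13b (0.0088), Kif21a (0.2095) and Kif5c (0.172), for the training effect in CA1 minus that in DG for Kif1a (-0.6131) and Kif5c (-0.5335), and for the training effect in CA3 minus that in DG for Kif13b (-0.0694), Kif1a (-0.3091), Kif5a (-0.0288) and Kif5c (-0.3122). With the sex-linked score Kif14 (1.076) and Kif26b (-0.2857) turned in CA1. Standard upper-quartile rescaling moved the share of higher calls in CA1 to 56.8%, for the training effect in CA3 minus that in DG from 70.8 to 50%, and for that in CA1 minus that in CA3, with 4 calls as reported, from 25 to 14.3%. The term for many genes at 0 could not be fitted in CA1 and DG, where it coincides with training. With 2 or 3 libraries a group and low values, the mitotic motors allow few tests.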
